A study of Mus musculus with 4 samples.

Results

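The transcription factors *Gata4*, *Gata5*, *Gata6*, *Tbx18*, *Tbx20*, *Hand2*, *Nkx2-5*, *Isl1*, *Foxc1* and *Foxc2* build the outflow tract and the aorta in the embryo, and their loci were examined for accessible chromatin in the adult mouse aorta. These 10 genes of the 21938 protein-coding genes of the GENCODE vM21 annotation were taken by name. Each peak that touched the gene body or the 50 kb on either side of it was counted as a peak of the locus. In all, 37 separate regions of the 42961 in the merged peak lists lay at the 10 loci. The GATA factors are zinc finger proteins that activate cardiac, endodermal and smooth muscle genes, and the T-box factors *Tbx18* and *Tbx20* act in the pericyte and proepicardial lineages and in the heart and its valves. *Hand2*, *Nkx2-5* and *Isl1* are regulators of the second heart field, the progenitor pool that gives rise to the outflow tract and the base of the aorta. *Foxc1* and *Foxc2* are forkhead factors of the cardiac neural crest and paraxial mesoderm that are needed for remodelling of the aortic arch.

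Chromatin was profiled by ATAC-seq, in which the transposase Tn5 cuts accessible DNA, in aortic nuclei of mice aged 60 days (P60). Control mice were *Col3a1+/+* and mice with vascular Ehlers-Danlos syndrome (VEDS) were heterozygous for a glycine substitution in type III collagen, *Col3a1G938D/+*, all on the C57BL/6J background. A female and a male library were made per genotype, 2 libraries each, and 2 mice were pooled in every library, so that sex and library cannot be told apart within a genotype. The annotations give the treatment as None for control and as Disease for VEDS and name no drug. Nuclei went through a single-cell ATAC workflow, but each library was deposited as 1 list of peaks over all nuclei, so that fewer cells of a type and less open chromatin per cell cannot be told apart.

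The lists were of unequal length. The control female list held 21176 peaks and the VEDS male list 41444, with medians of 14 and 22 fragments at the summit, the highest point of a peak. The control male list held 1236 peaks and the VEDS female list 504, with medians of 7 and 6 fragments. These medians are over called peaks and so also depend on the calling settings, and whether total depth or those settings differed between libraries was not tested. The control male and VEDS female lists are called short below and the others long. A locus without a peak was not taken as closed, since in the short lists 1.56% (control male) and 1.49% (VEDS female) of all protein-coding genes had a peak within 3 kb of a transcription start site (TSS), against 47.4% in the control female list and 58.5% in the VEDS male list. All values of a peak are relative to its own library, and peaks were ranked only within a list, with rank 1 for the highest −log10 q.

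The tissue was checked with marker genes. Of the 7 vascular smooth muscle markers, 7 had a promoter peak in each long list, among them *Acta2*, *Myh11* and *Myocd*. The endothelial list had 1 of 4 in the control female list (*Pecam1*) and 3 of 4 in the VEDS male list (*Pecam1*, *Tek* and *Kdr*), and the fibroblast list had 2 of 4 in both (*Pdgfra* and *Col1a1*). Cardiomyocyte markers had 2 of 6 in both long lists, *Ryr2* and *Actn2*, while *Myh6*, *Tnnt2*, *Actc1* and *Nppa* had none. The intervals of the endothelial, fibroblast and cardiomyocyte markers included the share of all protein-coding genes in each long list. No mesothelial, sympathetic neuron or immune marker had a promoter peak in any list, and 1 adipocyte (*Plin1*) and 1 skeletal muscle marker (*Ckm*) had one in the VEDS male list alone. In the short lists no marker had a promoter peak.

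Promoter peaks were found at *Gata6*, *Tbx18*, *Foxc1* and *Foxc2* in both long lists and at *Tbx20* in the VEDS male list alone. The control female list therefore held 4 of the 10 genes against the 47.4% of all protein-coding genes given above, and the VEDS male list held 5 of 10 against 58.5%. The Wilson intervals of these counts, 16.8% to 68.7% and 23.7% to 76.3%, included the shares of all protein-coding genes. Neither short list held a promoter peak at any of the 10 genes. *Gata4*, *Gata5*, *Hand2*, *Nkx2-5* and *Isl1* had no promoter peak in any of the 4 libraries. In the whole window, promoter included, the control female list held peaks for 7 genes and the VEDS male list for 9, where 73.0% and 80.2% of all protein-coding genes had at least 1. The VEDS female list had a peak at 1 locus (5.42% of all genes) and the control male list at 0 (7.97% of all genes).

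**Figure D1:**
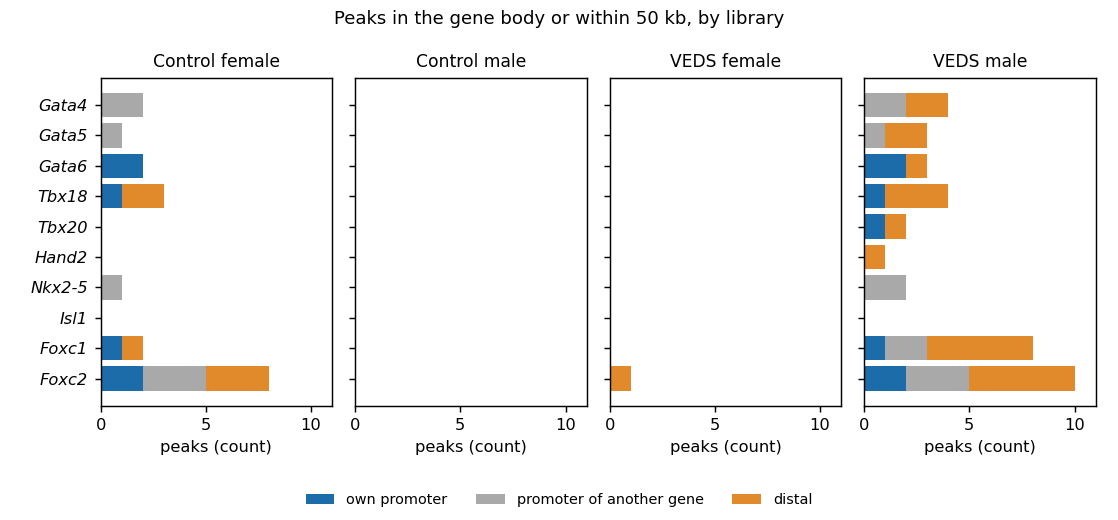
Number of peaks in the gene body and the 50 kb on each side (x axis) for each of the 10 genes (rows) in each library (panels), with bars divided into own promoter, promoter of another gene and distal. *Foxc2*, with 8 peaks in the control female list and 10 in the VEDS male list, stands highest, *Isl1* has none, and the short lists hold 1 peak in all.

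In total the loci held 19 peaks in the control female list, 0 in the control male list, 1 in the VEDS female list and 37 in the VEDS male list. The libraries of a genotype were thus farther apart than the genotype means, which were 9.5 ± 13.4 peaks in control and 19.0 ± 25.5 in VEDS (SD, n = 2 libraries each). The difference of 9.5 peaks had a two-sided exact permutation p = 0.667, and with 2 libraries against 2 the test cannot go below 0.333. Per gene, the median was 1.5 peaks in the control female list and 3 in the VEDS male list, beside 2 and 4 over all protein-coding genes. Per 100 kb of window the medians were 1.05 and 2.28 peaks, beside 1.41 and 2.59. The windows of the 10 genes held a median of 0.5 other protein-coding genes (range 0 to 3), and those of all protein-coding genes held 2.

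**Figure D2:**
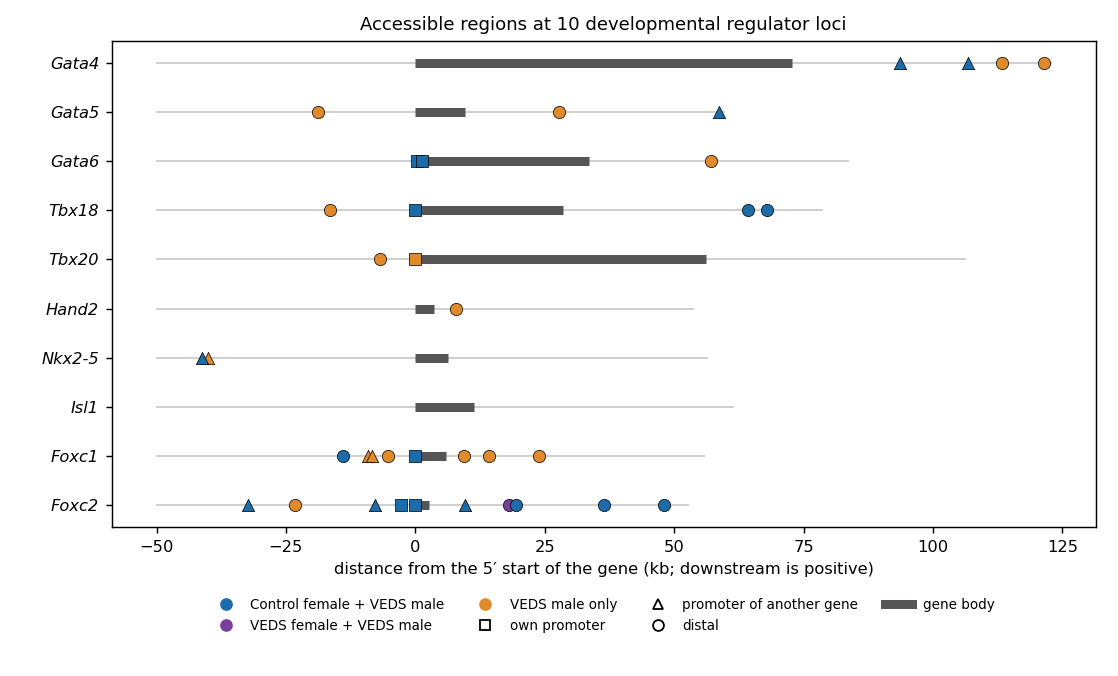
Summit of each peak region at the 10 loci, plotted by its distance in kb from the 5′ start of the gene (x axis, positive in the direction of transcription), with 1 row per gene, its body as a dark bar and its window as a thin line. Points are coloured by the lists that hold the region and shaped by whether it lies at the gene's own promoter, at the promoter of another gene or distally, which shows the cluster of *Foxc2* regions and the empty *Isl1* row.

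Of the 37 regions, 7 lay within 3 kb of a TSS of the regulator itself, 10 within 3 kb of a TSS of another gene and 20 farther from any TSS, here called distal. Own promoters were in both long lists in 6 of 7 regions and promoters of other genes in 7 of 10. Distal regions were in both long lists in 6 of 20, in the VEDS male list alone in 13, and in both VEDS lists in 1. Over the whole VEDS male list, 59.4% of the peaks within 3 kb of any TSS and 37.3% of the distal peaks overlapped a control female peak, beside 13 of 17 and 6 of 20 at the loci. All 20 distal regions lay outside the gene bodies. Of the 5 regulators that are 10 to 80 kb long (*Gata4*, *Gata6*, *Tbx18*, *Tbx20* and *Isl1*), 0 had a peak inside the gene farther than 3 kb from their own TSS in either long list. Over all protein-coding genes of that length, 10.7% (control female) and 21.1% (VEDS male) did. With 5 genes a count of 0 cannot be told apart from these shares.

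The GATA factors differed from each other. *Gata6* (chromosome 18, 11052064 to 11085635, plus strand), the member of the family best known in vascular smooth muscle, had a pair of promoter peaks in both long lists. The first lay at 0.4 kb from the 5′ start, over the first exon and 1010001N08Rik, a transcript annotated on the opposite strand, with rank 1936 and 36 fragments in the control female list and rank 2431 and 86 fragments in the VEDS male list. Its −log10 q was above that of 84.8% of the promoter peaks of the control female list and of 87.7% of those of the VEDS male list. The second lay at 1.2 kb, beside a later TSS of *Gata6*, with rank 8725 in the control female list and 6619 in the VEDS male list. A distal peak at 57.1 kb had 8 fragments and rank 39734 of 41444, and was in the VEDS male list alone.

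*Gata4* (chromosome 14, 63198922 to 63271692, minus strand), a cofactor of *Nkx2-5* and *Tbx5* in cardiomyocytes, had no peak at any of its 5 annotated start sites. The nearest peak was 35.4 kb from one of these in the control female list and 35.3 kb in the VEDS male list. It belonged to the promoter of the neighbour *Fdft1*, squalene synthase of the cholesterol pathway, which was among the highest peaks of both lists with rank 398 (41 fragments) and rank 232 (104 fragments). A further *Fdft1* start site had a peak in both long lists at rank 10361 and 9986. Both other regions of the window were in introns of *Fdft1*, had 14 and 10 fragments, and were in the VEDS male list alone. Hence all 4 regions of the *Gata4* window lay in or at *Fdft1*.

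*Gata5* (chromosome 2, 180325133 to 180334699, minus strand), an endocardial and epicardial factor, had 1 peak in the control female list and 3 in the VEDS male list, and none at its promoter. The region in both lists lay 58.7 kb downstream, within 3 kb of *Cables2*, at rank 16205 and 23262. The 2 others, at 27.7 kb downstream and 18.8 kb upstream, had 10 and 12 fragments in the VEDS male list. The upstream one, the nearest to the *Gata5* promoter, was masked as repeats over 54.0% of its bases.

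Among the T-box genes, *Tbx18* (chromosome 9, 87702800 to 87731260, minus strand) had peaks in both long lists at its promoter and at a pair of distal regions. The promoter peak had 24 fragments and rank 2753 in the control female list and 48 fragments and rank 4902 in the VEDS male list, above 78.8% and 76.9% of the promoter peaks of these lists. It also covered exonic sequence of D030062O11Rik, a transcript on the opposite strand. The distal peaks lay beyond the 3′ end, 64.3 and 68.0 kb from the 5′ start, with no other protein-coding TSS in the window. Their ranks were 7561 and 10958 in the control female list and 13942 and 12055 in the VEDS male list. The last region, 16.4 kb upstream, had 10 fragments and was in the VEDS male list alone. *Tbx20* (chromosome 9, 24718138 to 24774303, minus strand), a repressor and activator in cardiac chambers and valves, had a promoter peak, also within 3 kb of *Gm29824*, with 26 fragments at rank 14305 in the VEDS male list, and in the control female list no peak within 169619 bp of a *Tbx20* TSS. Its other region, 6.9 kb upstream, had 8 fragments and rank 40565.

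The T-box sequences below are shown because the *Tbx18* promoter had a peak in both long lists and the *Tbx20* promoter in a single list, and because the distal *Tbx18* region was in both long lists. They are printed 5′ to 3′ on the strand of the gene (mm10/GRCm38). Capitals mark matches to the fixed consensus sequences described further on, here the GATA motif (AGATAA) and the TEAD motif (ACATTCC) in the distal region, and CATCTG and CTAATG in the *Tbx18* promoter. The *Tbx18* promoter, chr9:87731262-87731510 on the minus strand, is from RefSeq (GRCm38.p6). The *Tbx20* promoter region is chr9:24774304-24774566 and the distal *Tbx18* region chr9:87666809-87667108, both on the minus strand.
Tbx18 promoter: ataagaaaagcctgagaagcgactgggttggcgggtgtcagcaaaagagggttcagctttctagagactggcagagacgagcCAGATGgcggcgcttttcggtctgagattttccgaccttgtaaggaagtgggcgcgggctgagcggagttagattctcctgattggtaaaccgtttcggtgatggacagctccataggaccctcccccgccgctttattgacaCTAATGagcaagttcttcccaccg
Tbx20 promoter: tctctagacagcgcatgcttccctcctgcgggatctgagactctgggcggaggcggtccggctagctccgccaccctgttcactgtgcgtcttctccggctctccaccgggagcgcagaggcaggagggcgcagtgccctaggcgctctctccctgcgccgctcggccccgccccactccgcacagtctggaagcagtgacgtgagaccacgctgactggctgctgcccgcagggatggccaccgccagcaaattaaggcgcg
Tbx18 distal, 64.3 kb: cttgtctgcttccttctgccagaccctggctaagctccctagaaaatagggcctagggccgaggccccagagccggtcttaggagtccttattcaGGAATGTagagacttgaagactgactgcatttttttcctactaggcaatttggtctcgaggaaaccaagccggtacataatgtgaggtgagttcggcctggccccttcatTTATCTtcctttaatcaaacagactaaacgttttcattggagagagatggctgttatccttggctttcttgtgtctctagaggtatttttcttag

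*Foxc1* (chromosome 13, 31806633 to 31812476, plus strand) had the highest-ranked promoter peak of the 10 genes in both long lists. It had 35 fragments, a fold enrichment of 13.0 and rank 1037 in the control female list, and 80 fragments, a fold enrichment of 13.0 and rank 1771 in the VEDS male list. Its −log10 q of 29.1 and 60.7 was above that of 91.8% and 90.9% of the promoter peaks of those lists, whose medians were 11.4 and 19.2. A distal region 14.0 kb upstream was also in both, with 11 fragments (rank 11584) and 22 fragments (rank 17862). The 6 other regions, between 9.1 kb upstream and 23.9 kb downstream, were in the VEDS male list alone with 11 to 27 fragments, 2 of them at the non-coding gene *Gm11379* and 2 in introns of *Gmds*. The promoter (chr13:31806333-31806632) and the upstream region (chr13:31792554-31792827) are shown as the 2 *Foxc1* regions found in more than 1 library, both on the plus strand of mm10/GRCm38. Neither holds a match to the consensus sequences searched, so no letter is in capitals.
Foxc1 promoter: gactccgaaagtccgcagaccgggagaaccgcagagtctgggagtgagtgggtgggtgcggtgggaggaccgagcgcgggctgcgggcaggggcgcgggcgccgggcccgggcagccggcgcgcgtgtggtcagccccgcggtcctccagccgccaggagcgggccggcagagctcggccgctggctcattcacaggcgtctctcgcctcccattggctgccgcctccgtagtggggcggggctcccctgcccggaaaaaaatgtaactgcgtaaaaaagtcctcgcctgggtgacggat
Foxc1 distal, 14.0 kb upstream: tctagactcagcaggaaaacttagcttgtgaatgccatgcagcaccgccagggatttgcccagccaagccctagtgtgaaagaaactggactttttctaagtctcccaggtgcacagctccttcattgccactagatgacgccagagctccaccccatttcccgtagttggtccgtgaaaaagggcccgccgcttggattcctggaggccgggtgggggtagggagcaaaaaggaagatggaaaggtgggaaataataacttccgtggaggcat

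*Foxc2* (chromosome 8, 121116171 to 121118895, plus strand), which also acts in lymphatic valves, had the most peaks, 8 in the control female list and 10 in the VEDS male list, and the only peak of the VEDS female list at these loci. In its window 3 other protein-coding genes have a TSS, namely *Mthfsd* and the forkhead genes *Foxf1* and *Foxl1*. Of its regions, 2 were at its own promoter, 0.0 and 2.7 kb upstream of the 5′ start. The first had rank 7270 in the control female list and 9688 in the VEDS male list, and the second rank 13368 and 7665. Another 3 lay at the promoters of *Foxf1*, *Gm27530* and the antisense partner of *Foxf1*, *Fendrr* (32.4 kb upstream), *Mthfsd* (7.8 kb upstream) and *Foxl1* (9.5 kb downstream), each in both long lists. Of the 5 distal regions, those at 19.4, 36.5 and 48.1 kb were in both long lists, and one 23.3 kb upstream was in the VEDS male list alone with 19 fragments. That one lay in an exon of *Mthfsd*, 8248 bp from a *Mthfsd* TSS and 23234 bp from that of *Foxc2*. The region at 36.5 kb had the lowest rank number of the locus in the VEDS male list (2227, 70 fragments), and rank 5285 (22 fragments) in the control female list. The region at 48.1 kb had rank 3825 (62 fragments) and 7354 (18 fragments).

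The *Foxc2* region at 18.1 kb was the only region at the 10 loci in a short list. In the VEDS female list it had 6 fragments, a fold enrichment of 5.44 and rank 252 of 504. In the VEDS male list it had 27 fragments, a fold enrichment of 5.06 and rank 22430 of 41444. Neither control list had a peak there, although the control female list had a peak nearby at 19.5 kb with 12 fragments and rank 17448. The overlap of the VEDS female and VEDS male peaks rests on 1 region. The 4 distal regions are printed on the plus strand of chromosome 8 (mm10/GRCm38): chr8:121134238-121134537 at 18.1 kb, chr8:121135392-121135691 at 19.4 kb, chr8:121152490-121152789 at 36.5 kb and chr8:121164083-121164382 at 48.1 kb. They are shown as the distal regions present in more than 1 library at the locus with the most peaks. Among protein-coding genes, *Foxl1* had the nearest TSS to all 4 (6298, 7397, 24479 and 36076 bp), nearer than that of *Foxc2* (18067, 19166, 36248 and 47845 bp). At 19.4, 36.5 and 48.1 kb a TSS of *Gm37609* was nearer still (5044, 11476 and 23073 bp). All 4 lay in an intron of *Gm20388*. The label *Foxc2* gives the window only, and which gene a region acts on was not tested. Capitals mark the AP-1 motif (TGANTCA) at 18.1 and 36.5 kb, MEF2, TEAD (ACATTCC) and T-box (AGGTGT) motifs at 19.4 kb, and CTAATG and CATCTG at 48.1 kb, each on either strand.
Foxc2 distal, 18.1 kb: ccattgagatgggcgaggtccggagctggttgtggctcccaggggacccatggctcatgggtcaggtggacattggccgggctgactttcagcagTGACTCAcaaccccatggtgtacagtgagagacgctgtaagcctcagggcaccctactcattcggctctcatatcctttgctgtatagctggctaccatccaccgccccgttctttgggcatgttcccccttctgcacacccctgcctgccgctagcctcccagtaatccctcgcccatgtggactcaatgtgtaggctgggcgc
Foxc2 distal, 19.4 kb: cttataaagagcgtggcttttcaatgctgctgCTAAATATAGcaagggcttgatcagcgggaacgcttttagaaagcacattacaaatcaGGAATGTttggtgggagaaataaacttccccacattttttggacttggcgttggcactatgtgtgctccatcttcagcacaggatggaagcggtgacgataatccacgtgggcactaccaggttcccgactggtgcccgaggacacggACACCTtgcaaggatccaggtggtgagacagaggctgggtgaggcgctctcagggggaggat
Foxc2 distal, 36.5 kb: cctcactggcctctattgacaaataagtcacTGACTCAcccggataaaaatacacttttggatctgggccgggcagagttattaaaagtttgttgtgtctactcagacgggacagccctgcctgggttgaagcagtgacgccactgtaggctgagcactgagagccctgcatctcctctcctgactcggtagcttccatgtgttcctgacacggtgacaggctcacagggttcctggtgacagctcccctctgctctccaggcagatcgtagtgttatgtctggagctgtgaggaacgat
Foxc2 distal, 48.1 kb: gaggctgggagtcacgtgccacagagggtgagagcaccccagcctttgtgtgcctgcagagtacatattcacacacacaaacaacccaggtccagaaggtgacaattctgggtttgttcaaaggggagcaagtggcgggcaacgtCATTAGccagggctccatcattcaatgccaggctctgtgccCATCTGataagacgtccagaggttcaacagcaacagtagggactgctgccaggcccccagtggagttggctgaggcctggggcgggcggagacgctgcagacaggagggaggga

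**Figure D3:**
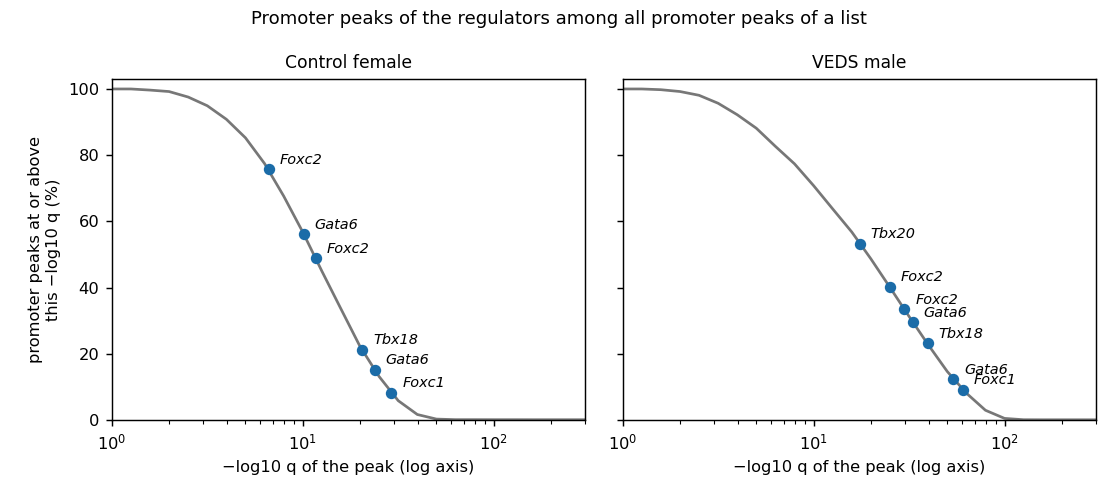
Share of the promoter peaks of a list (y axis, percent) with a −log10 q at or above the value on the x axis (log10 scale), for the control female and the VEDS male list, with the promoter peaks of the regulators marked on each curve. *Foxc1* and the first *Gata6* peak lie toward the strong end in both lists, and *Tbx20* is marked in the VEDS male list alone.

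No promoter peak was found at *Hand2*, *Nkx2-5* or *Isl1* in any list. In the long lists 47.4% (control female) and 58.5% (VEDS male) of all protein-coding genes had one. *Hand2* (chromosome 8, 57320983 to 57324633, plus strand), a basic helix-loop-helix factor of the outflow tract and the neural crest, had a single peak 7.8 kb downstream in the VEDS male list, with 10 fragments and rank 35898. *Nkx2-5* (chromosome 17, 26838664 to 26845009, minus strand), the cardiac homeobox gene, had peaks only at the non-coding gene *Gm17382*, 40.1 and 41.2 kb upstream. The farther of them was in both long lists at rank 5995 and 9638, and the nearer in the VEDS male list alone. *Isl1* (chromosome 13, 116298281 to 116309689, minus strand), the LIM homeobox gene that marks the second heart field, had no peak in its window in any of the 4 lists. The nearest peak to an *Isl1* TSS was 1196842 bp away in the control female list and 609124 bp away in the VEDS male list, and 2.1% and 2.95% of protein-coding genes were farther from a peak.

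The *Isl1* and *Hand2* promoters are shown as promoters rich in CpG that carried no peak. Both are from RefSeq (GRCm38.p6), chr13:116309690-116309938 on the minus strand and chr8:57320733-57320981 on the plus strand, upstream of the start site. The *Hand2* stretch also overlaps an exon of the antisense gene *Hand2os1*. Capitals mark the consensus matches CATCTG and AGATAA on either strand.
Isl1 promoter: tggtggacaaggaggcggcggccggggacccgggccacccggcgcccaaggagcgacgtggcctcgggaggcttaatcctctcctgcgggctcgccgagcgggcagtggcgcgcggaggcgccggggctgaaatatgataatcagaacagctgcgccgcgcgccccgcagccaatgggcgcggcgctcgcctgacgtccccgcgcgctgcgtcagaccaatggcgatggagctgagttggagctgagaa
Hand2 promoter: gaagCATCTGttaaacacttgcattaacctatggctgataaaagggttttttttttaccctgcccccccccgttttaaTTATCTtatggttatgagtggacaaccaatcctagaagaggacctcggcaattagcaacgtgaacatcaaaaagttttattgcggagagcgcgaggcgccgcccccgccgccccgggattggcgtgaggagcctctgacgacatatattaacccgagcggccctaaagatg

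Among the 7 regulator promoters for which it was computed, the CpG ratio did not order them by the presence of a peak. RefSeq promoters, 250 bases before to 50 after the start, were found for 7 of the 10 genes, and those of *Gata4*, *Gata6* and *Foxc2* were not in the table. The observed to expected CpG ratio was 1.05 at *Isl1*, above 96.5% of the 32851 RefSeq promoters, and 0.943 at *Foxc1*, 0.897 at *Hand2*, 0.755 at *Tbx18*, 0.745 at *Tbx20*, 0.714 at *Gata5* and 0.466 at *Nkx2-5*, beside a median of 0.384 over all. Of the 6 that were CpG-rich (ratio of at least 0.6 and GC content of at least 50%), 2 had a peak over them in the control female list and 3 in the VEDS male list. Among all 10995 such promoters, 64.9% and 78.2% did. Of the genes without a RefSeq promoter, *Gata6* and *Foxc2* had promoter peaks in both long lists and *Gata4* had none. The counts over 6 promoters thus leave out genes with a peak and cannot be read as a shortfall.

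**Figure D4:**
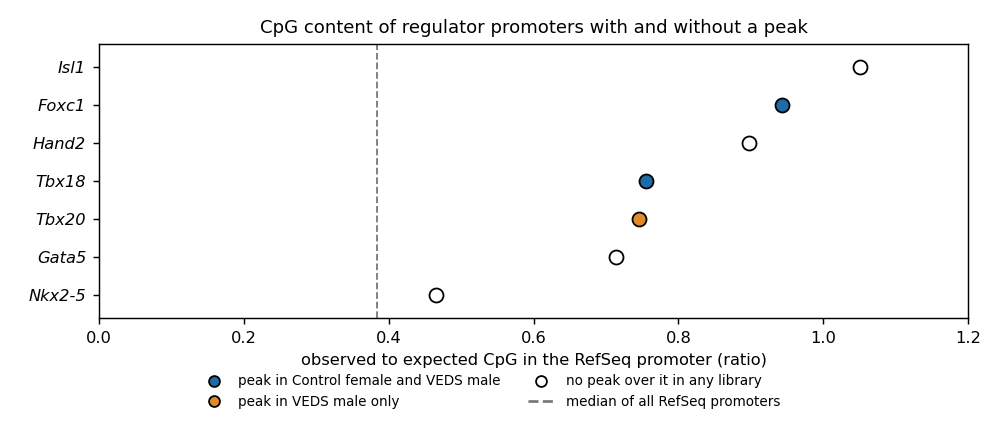
Observed to expected CpG ratio (x axis) of the 7 RefSeq promoters, 1 row per gene, coloured by the lists with a peak over the promoter, with the median of all RefSeq promoters, 0.384, as a dashed line. The open points of *Isl1* (1.05) and *Hand2* (0.897) lie on either side of the filled point of *Foxc1* (0.943).

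The regions of each genotype, merged over its female and male libraries, were then compared. All 19 control regions at the loci overlapped a VEDS region (100%, 95% Wilson interval 83.2% to 100%), as did 92.9% of all control regions. Of the 37 VEDS regions, 19 overlapped a control region (51.4%, interval 35.9% to 66.6%), as did 48.1% of all VEDS regions. The intervals cover counting error only, and regions of 1 locus are not independent. When the VEDS male list was divided by rank into 5 groups of equal size, the peaks at the loci also found in the control female list numbered 9 of 9, 7 of 8, 2 of 5, 1 of 4 and 0 of 11 from the highest to the lowest group. Over the whole list the shares were 97.6%, 75.1%, 39.6%, 18.1% and 7.52%. The 19 VEDS male peaks also in the control female list had a median of 48 fragments (17 to 104), a width of 425 bp and a rank of 9638. The 18 others had 13 fragments (8 to 27), 225 bp and a rank of 34969.5. The regions found in the VEDS male list and not in the control female list were thus mostly of low rank in the longest list, and genotype, sex and list length cannot be told apart for them.

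Motifs of the regulators' own families were present in 1 to 7 of the regions. Fixed consensus sequences of 9 families were searched on both strands in the 300-bp window around each of the 37 VEDS male summits. The site of GATA factors, AGATAA, was found in 3 of 37 windows beside 9.18% of the windows of the whole list. The T-box site AGGTGT was found in 3 beside 9.93%, and the NKX2-5 site TNAAGTG in 3 beside 11.2%. The forkhead site TGTTTAC was found in 1 beside 3.34%, at *Foxc1*. The E-box CATCTG, bound by HAND factors, was found in 7 beside 17.2%. The LIM homeobox site CTAATG was found in 6 beside 7.4%. The AP-1 site TGANTCA, bound by FOS and JUN, was found in 2 beside 14.5%, both distal at *Foxc2*. The TEAD site ACATTCC was found in 4 beside 6.21%, at *Foxc1*, *Foxc2*, *Gata6* and *Tbx18*, and MEF2 in 2 beside 5.79%. Among the 20 distal windows alone, AP-1 was found in 2 beside 19.4% of all distal windows, TEAD in 4 beside 7.82% and MEF2 in 2 beside 8.1%. A match is a description of the sequence, not a bound site, and counts this small carry no test.

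Other regulators of heart and vessel development were set beside the 10 genes. Of 24 such genes, 10 had a promoter peak in the control female list and 12 in the VEDS male list. The 10 were *Gata2*, *Gata3*, the GATA cofactors *Zfpm1* and *Zfpm2*, *Foxf1*, *Msx1*, *Prrx1*, *Twist1*, *Snai2* and *Meis1*, and the VEDS male list added *Tbx3* and *Six2*. No promoter peak was found in either long list at *Tbx1*, *Tbx2*, *Tbx5*, *Hand1*, *Nkx2-6*, *Irx4*, *Mesp1*, *Tcf21*, *Wt1*, *Sox17*, *Msx2* or *Tfap2b*. In the VEDS female list 1 of the 24 genes, *Snai2*, a regulator of mesenchymal transition, had a promoter peak, and in the control male list 0 did. In those lists 1.49% and 1.56% of all protein-coding genes had one.

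**Figure D5:**
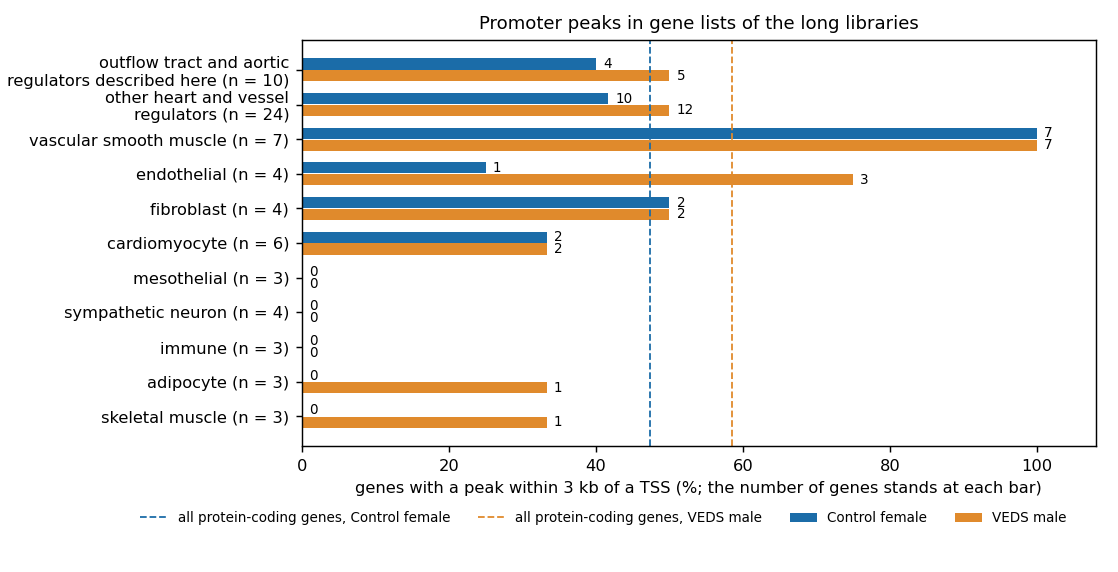
Percent of the genes of each list (x axis, n in the labels) with a peak within 3 kb of a TSS in the control female and the VEDS male libraries, with the number of genes at each bar and the share of all protein-coding genes, 47.4% and 58.5%, as dashed lines. The bars of the 10 regulators, 4 and 5 genes, lie below the lines. Their Wilson intervals, 16.8% to 68.7% and 23.7% to 76.3%, include the shares of all protein-coding genes, so no shortfall is shown. The bars of the 7 vascular smooth muscle markers reach 100% in both.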

How the data were processed

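ATAC-seq peaks of aortic nuclei from 4 libraries, a female and a male one of each genotype, were used, each a separate list of narrow peaks. The authors called these with MACS2 on mm10 (GRCm38) after barcode-aware removal of duplicates and a correction for Tn5 cut sites, and left out blacklisted regions. The aligner is not given in the sources used here. In the deposited lists the score equals the −log10 q multiplied by 10 and cut to a whole number. The deposited fold enrichment is a ratio to background within the library, and the deposited −log10 p and −log10 q are the peak caller's. No value was compared between lists.

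Genes and start sites were those of GENCODE vM21. A promoter peak had an edge within 3 kb of a TSS, and a peak of a locus overlapped the gene body or the 50 kb on either side by at least 1 bp. Overlapping peaks were merged into regions across libraries. The number of fragments at a summit, the depth behind a peak, was solved for from the fold enrichment and −log10 p of each peak under a Poisson model. Whether the peak caller counted whole fragments or single Tn5 cut ends is not given in the sources used here, and the word fragments covers either. The median number was 6 to 22 per library, taken over called peaks, so that it also depends on the calling settings. On 500 simulated peaks 100% of the numbers were recovered. These peaks were built with the same model, so that the recovery checks the solving step and not the model. The mean number of peaks per library was compared between genotypes by a two-sided exact permutation test, shares were given 95% Wilson intervals, and list counts were set beside the share of all protein-coding genes. Sequences were read from the GRCm38 reference and from RefSeq promoters (GRCm38.p6). The software was Python 3.11.15, scipy 1.17.1, numpy 2.4.6, pysam 0.24.0, pandas 2.3.3 and matplotlib 3.10.9.

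The 10 genes, the other gene lists and the tests were chosen with earlier results of these data known, so that none is independent evidence. All 10 genes are named, and another gene is named where a peak of a locus lies within 3 kb of its TSS or where it belongs to a list given in full. *Gmds*, *Hand2os1*, *Gm37609* and *Gm20388* were named beside this rule, after the peaks were seen. A further item of the list of other regulators is not reported here. Alternatives were −log10 q of at least 5 and 10, the same number of peaks in each list, promoters within 1 kb, protein-coding transcripts only, windows of 10 and 100 kb, leaving out promoters of other genes, an overlap of at least 50% of the region, and leaving out each library. Pairing the libraries by sex was added after the data were seen.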

Additional observations from a re-analysis of the deposited data

Results flagged for a closer look

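The difference between VEDS and control had opposite signs in females and males. At the 10 loci the VEDS female list held 18 fewer peaks than the control female list (a difference of -18, from 19 to 1), whereas the VEDS male list held 37 more than the control male list (0 to 37). The number of regulators with a promoter peak was lower by 4 in VEDS females (a difference of -4, from 4 to 0) and higher by 5 in VEDS males (0 to 5). Both differences go the way of the list lengths, since the longer list of each pair, of 21176 or 41444 peaks, held more peaks at the loci than the shorter, of 504 or 1236. The share of all protein-coding genes with a promoter peak went the same ways. From control to VEDS it went from 47.4% to 1.49% in females and from 1.56% to 58.5% in males. With 1 library per sex and genotype, the difference between the sexes was not tested.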

How the results depend on the processing

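The number of regulators with a promoter peak, 4 in control and 5 in VEDS, was the same at a −log10 q of at least 5 or 10, with promoters within 1 kb and with protein-coding transcripts only. It was 0 and 0 when each list was held to its 504 highest peaks. In the VEDS female list, which has that length, 1.49% of all protein-coding genes had a promoter peak. A count of 0 among 10 genes is therefore no result about the regulators. Regions at the loci, 19 in control and 37 in VEDS, came to 16 and 26 at a −log10 q of at least 5, 12 and 21 at 10, and 1 and 2 at equal list size. At equal list size the control region and 1 of the VEDS regions were the *Fdft1* promoter, at rank 398 and 232. The other VEDS region was that at 18.1 kb from *Foxc2*, from the VEDS female list. The regions at the loci came to 8 and 16 in windows of 10 kb, 33 and 57 in windows of 100 kb, and 13 and 31 without the promoters of other protein-coding genes. With an overlap of at least 50% of the region, the shares were 100% of control regions and 43.2% of VEDS regions. When each library was left out in turn, the promoter counts ranged from 0 to 4 in control and from 0 to 5 in VEDS, the regions from 0 to 19 and from 1 to 37, the control share from 0 to 100% and the VEDS share from 0 to 51.4%. The low ends came without the control female or without the VEDS male library, so that each genotype's result rests on 1 library. Without the control female library no control region is left, and its share has no value. Paired by sex, an alternative chosen after seeing the data, the difference in peaks at the loci was again 9.5 and the two-sided exact permutation p was 1.0, where 2 pairs cannot go below 0.5.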

Other observations

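Beyond the 50 kb window, 58.6 kb from *Tbx18* on its upstream side, both short lists held a peak that the control female list lacked. In the control male list it was 3422 bp wide at rank 52 of 1236, in the VEDS female list 1707 bp wide at rank 278 of 504, and in the VEDS male list 169 bp wide at rank 41212 of 41444. All of its bases (100%) were masked as repeats in the reference sequence in each of the 3 lists. It was noticed after the peaks had been examined, is outside the rule for the loci, and enters no count.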
